A study of Mus musculus with 56 samples.

Results

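The genes described here were 32 members of the pathways that build cholesterol and fatty acids, taken by symbol out of 20314 genes in a table of read counts scaled to the size of each library (CPM). Their symbols were matched to the table through mouse Entrez identifiers, and all 32 were found and passed the filter on low values, which asked for at least 1 CPM in at least 2 samples and left 13754 genes. The list was divided into 9 genes of the mevalonate and isoprenoid steps, 11 genes of the steps from squalene to cholesterol, 4 genes of sterol sensing and transport, and 8 genes of fatty acid synthesis. The first pair of groups, 20 genes, are called sterol enzymes below.

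Cells make cholesterol from acetyl-CoA by way of mevalonate, farnesyl diphosphate, squalene and lanosterol, and side branches of the same route give the lipid anchors of small GTPases. The transcription factor SREBP2, the product of Srebf2, drives most of these genes when the endoplasmic reticulum is short of sterol, while Insig1 holds the SREBP precursors in that membrane when sterol is plentiful. SREBP1, from Srebf1, acts more on the fatty acid branch, where Acly, Acaca and Fasn build palmitate, Elovl6 lengthens it, and the Scd and Fads enzymes add double bonds. Lactating mammary epithelium and many carcinomas are known for high output of both branches.

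The samples were cell lines grown from mammary tumors of MMTV-PyMT mice on the FVB/N background, in which the MMTV promoter drives the polyoma middle T oncogene in mammary epithelium. Every line carried that transgene and was grown with serum, and the lines differed in their alleles of β-catenin, the transcriptional mediator of Wnt signals: fl/fl, D164A/fl, D164A/-, ΔC/fl, ΔC/-, dm/fl and dm/-. A floxed allele (fl) works as wild type, D164A is a point mutation that stops the binding of Bcl9 and Bcl9L, the labels do not say what ΔC and dm stand for, and the lines marked with a minus had lost the floxed allele after infection with a virus coding for Cre and GFP followed by sorting of green cells. Each line was kept with or without Wnt3a (100 ng/ml, 3 days) and, in a separate experiment, with or without TGFβ (2 ng/ml, 4 days), giving 28 conditions with 2 biological duplicates each and 56 RNA-seq samples. The labels do not say whether the samples of a genotype came from 1 cell line or from several, so effects of the genotype and of the cell lines that carried it cannot be told apart, and line below means all samples of a genotype.

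The samples held 22.4 to 33.7 M reads in genes, so that 1 read was worth 0.0306 to 0.0486 CPM. The Wnt3a treatment left its known mark: Axin2, a direct Wnt target, rose in 6 lines, while in dm/- it lay between 0 and 0.079 CPM throughout. The 6 mammary epithelial markers summed to between 1185 and 8284 CPM in every sample. Of the 5 adipocyte markers Adipoq, Plin1, Lep and Cidec never passed 0.106 CPM, while Fabp4 reached 23.6 CPM, with the summed adipocyte level at 0.460 to 23.6 CPM in dm/fl, 0.395 to 5.71 CPM in dm/- and 0.0444 to 0.757 CPM in fl/fl. Of the leukocyte markers Ptprc, Cd3e and Adgre1 never passed 0.208 CPM, although Cd68 reached 79.4 CPM and the summed leukocyte level was 8.03 to 79.4 CPM in ΔC/- and 12.9 to 62.2 CPM in dm/-. In dm/fl the summed fibroblast markers ran from 32.4 to 309.9 CPM and the summed endothelial markers from 0.0932 to 35.1 CPM. In fl/fl they ran from 3.56 to 24.1 and from 0.15 to 3.71 CPM. The fibroblast sum also reached 250.5 CPM in ΔC/fl, 144.3 in D164A/- and 78.2 in D164A/fl, against 26.1 in ΔC/- and 27.1 in dm/-. By gene, Pdgfra reached 302 CPM, Col1a1 70.9, Col1a2 15.6 and Dcn 3.49. Of the endothelial markers Cdh5 reached 35.0 CPM, Pecam1 1.44 and Kdr 0.297. The part of all these markers in the results was not tested. In bulk samples fewer cells of a type and less RNA per cell cannot be told apart. Libraries of the Wnt3a experiment differed in their tilt towards genes of high GC content, given as the Spearman correlation of a library's deviations with GC across genes. The correlation was highest in dm/fl without Wnt3a, with 0.80 in replicate 1, called the tilted library below, against -0.41 in replicate 2. Other duplicates were as far apart, with 0.71 against -0.52 in dm/- with Wnt3a, 0.61 against -0.46 in ΔC/fl without Wnt3a and 0.55 against -0.45 in D164A/fl without Wnt3a. The log2 fold changes of the Wnt3a responses correlated with GC by -0.82 in dm/fl, 0.81 in fl/fl and 0.84 in ΔC/-, and the part of GC in the results was not tested beyond the removal of its trend. In the tilted library Fasn, at 58.4% GC, stood at 6146 CPM, and at 757 CPM in replicate 2. The dm call counts of members in untreated cells, the ranges named and the correlations that use this library are given with and without it. Untreated dm/fl values of genes outside the member list are given only with it. The duplicates of fl/fl in the TGFβ experiment also differed, with replicate 1 lower for 18 of 19 sterol enzymes (Idi2 left out for its low counts) in untreated cells and again with TGFβ. Replicate 1 was also lower for 18 of 19 in ΔC/- without TGFβ and ΔC/fl with TGFβ, and for 17 of 19 in dm/- without Wnt3a, where the median gap was 2.29-fold, against 2.13-fold in untreated fl/fl of the TGFβ experiment.

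Because the sterol genes are known for promoters with shared elements, the promoters of 3 members that differed among lines and of the Idi1 and Idi2 pair are printed here, each 250 bases before to 50 after the annotated start, from RefSeq on GRCm38.p6, with CCAAT and its reverse complement ATTGG in capitals. Mvk lies at chr5:114444019-114444318 on the plus strand, Mvd at chr8:122443373-122443672 on the minus strand, Insig1 at chr5:28071162-28071461 on the plus strand, Idi1 at chr13:8885356-8885655 on the plus strand and Idi2 at chr13:8952613-8952912 on the plus strand.
Mvk: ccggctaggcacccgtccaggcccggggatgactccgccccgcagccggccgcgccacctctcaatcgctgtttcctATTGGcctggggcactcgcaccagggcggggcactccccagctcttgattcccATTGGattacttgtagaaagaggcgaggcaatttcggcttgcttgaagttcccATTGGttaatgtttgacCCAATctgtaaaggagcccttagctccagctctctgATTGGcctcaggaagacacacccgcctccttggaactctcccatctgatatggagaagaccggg
Mvd: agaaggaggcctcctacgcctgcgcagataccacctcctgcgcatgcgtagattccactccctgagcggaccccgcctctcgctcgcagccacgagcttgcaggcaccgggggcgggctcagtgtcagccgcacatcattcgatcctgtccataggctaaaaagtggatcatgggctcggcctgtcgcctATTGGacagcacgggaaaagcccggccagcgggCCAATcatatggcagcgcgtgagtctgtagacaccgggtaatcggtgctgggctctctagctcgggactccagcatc
Insig1: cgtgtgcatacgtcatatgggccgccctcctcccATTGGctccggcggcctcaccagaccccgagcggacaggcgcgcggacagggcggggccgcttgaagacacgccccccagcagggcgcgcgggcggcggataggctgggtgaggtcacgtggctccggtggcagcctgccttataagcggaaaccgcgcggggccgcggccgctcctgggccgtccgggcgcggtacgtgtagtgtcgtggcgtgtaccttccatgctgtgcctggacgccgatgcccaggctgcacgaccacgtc
Idi1: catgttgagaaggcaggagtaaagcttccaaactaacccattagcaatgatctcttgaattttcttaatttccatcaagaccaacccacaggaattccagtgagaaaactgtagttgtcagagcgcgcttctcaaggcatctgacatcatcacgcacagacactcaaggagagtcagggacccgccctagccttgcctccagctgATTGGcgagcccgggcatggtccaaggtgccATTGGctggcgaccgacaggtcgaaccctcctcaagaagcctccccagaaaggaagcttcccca
Idi2: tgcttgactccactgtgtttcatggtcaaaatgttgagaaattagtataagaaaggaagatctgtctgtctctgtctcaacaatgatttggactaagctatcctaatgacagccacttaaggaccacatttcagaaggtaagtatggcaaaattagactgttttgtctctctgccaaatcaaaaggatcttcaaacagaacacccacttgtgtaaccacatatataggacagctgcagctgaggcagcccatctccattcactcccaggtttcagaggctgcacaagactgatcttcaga

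Mvk held 5 CCAAT matches, Mvd and Idi1 2 each, Insig1 1 and Idi2 0. RefSeq promoters were matched for 25 of the 32 members, and CCAAT, searched on both strands, was found in 19 of these 25 (76%), against 37.9% of all 27025 promoters of this length. It was present in 17 of 20 promoters of the sterol branch, sensing genes included, and in 2 of 5 of the fatty acid genes. The GC box CCGCCC, which can overlap other GC-rich elements, was present in 18 of 25 (72%), against 35.9% of all promoters. A sterol regulatory element written as TCACNCCAC was found in 1 of 25, that of Hmgcs1, against 1.22% of all promoters. These matches describe letters and not bound sites.

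Per kilobase of exon, 4 of the 8 fatty acid genes stood highest in untreated fl/fl cells. The level per kilobase was 496 CPM for Scd2 and 246 CPM for Scd1, the stearoyl-CoA desaturases, 145 CPM for Fasn and 78.1 CPM for Acly. Of the sterol enzymes, the lanosterol demethylase Cyp51 was at 53.6 CPM per kilobase, the HMG-CoA synthase Hmgcs1 at 41.3 and the squalene monooxygenase Sqle at 40.6. The other fatty acid genes were lower, from 37.5 for Fads2 to 10.1 CPM per kilobase for Acaca. At the other end were the isopentenyl diphosphate isomerases, Idi1 at 1.39 and Idi2 at 0.0196 CPM per kilobase.

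Among untreated cells the 7 lines differed for most of these genes. In limma's F test, 27 of the 32 members passed an adjusted p of 0.05 (Benjamini-Hochberg over all genes tested), and so did 75.5% of all genes, so the share among the members was near the background. By role the counts were 7 of 9 mevalonate genes, 11 of 11 from squalene to cholesterol, 3 of 4 for sensing and transport and 6 of 8 fatty acid genes. In the untreated cells of the Wnt3a experiment alone 12 members passed, and in those of the TGFβ experiment alone 24, without a share of all genes for either. The widest ranges of the line means, on the log2(CPM + 1) scale, were those of Fads1 (17.3-fold between D164A/fl and ΔC/-), Scd1 (9.51-fold between D164A/- and dm/fl) and Srebf1 (8.99-fold between D164A/- and dm/-). Ebp (6.30-fold), Insig1 (6.16-fold), Fads2 (5.85-fold), Scd2 and Mvk (5.54-fold each) and Stard4 (5.51-fold) followed. The narrowest were Idi2, which was at or near 0 reads in untreated cells (1.04-fold), Ggps1 at 1.56-fold, Sc5d at 1.78-fold and Elovl6 at 1.98-fold. Without dm/fl replicate 1 of the Wnt3a experiment the range of Mvk was 3.02-fold, that of Mvd 2.88-fold instead of 5.26-fold and that of Pmvk 3.23-fold instead of 4.90-fold. Those of Scd1 (9.79-fold), Ebp (5.70-fold), Insig1 (5.82-fold), Ggps1 (1.45-fold) and Sc5d (1.99-fold) changed less. That of Stard4 was 6.01-fold, with dm/fl instead of fl/fl as its highest line.

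**Figure D1:**
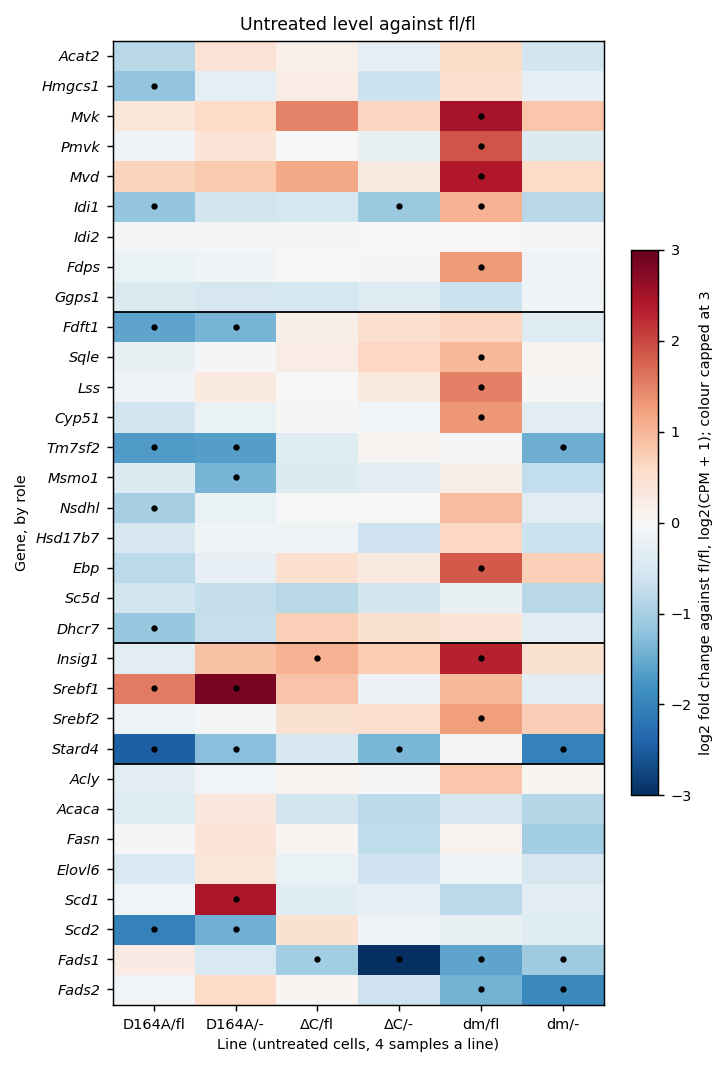
Heat map of the log2 fold change of each of the 32 members (rows, by role) in 6 mutant lines (columns) against fl/fl, in untreated cells over both experiments, with colours capped at 3 in size and a dot where the gene passed an adjusted p of 0.05 and a log2 fold change of 1. The dm/fl column is mostly raised in the sterol rows, with 9 of 20 sterol enzymes called higher, and the D164A/fl column mostly lowered, with 6 of 20 called lower.

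Of the untreated lines, dm/fl had the highest mean over the sterol enzymes in both experiments. A change was called where the adjusted p was at most 0.05 and the log2 fold change at least 1 in size, the thresholds of the study. Against fl/fl, 11 members were higher in dm/fl and 2 lower, while 12.1% of all genes were called higher and 8.96% lower. The higher members were 9 of 20 sterol enzymes (5 mevalonate, 4 later) and 2 of 4 sensing and transport genes, and the lower ones were 2 of 8 fatty acid genes. The median log2 fold change was 0.78 over the sterol enzymes, of which 16 of 20 were positive, -0.37 over the fatty acid genes and 0.009 over all genes.

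Insig1, the sterol-regulated retention protein, had 154 and 122 CPM in the untreated dm/fl cells of the Wnt3a experiment and 362 and 203 CPM in those of the TGFβ experiment. In fl/fl the same samples had 43.5, 48.0, 19.3 and 50.5 CPM, so all dm/fl samples lay above all fl/fl samples. The difference was 4.98-fold (log2 2.32, SE 0.32, adjusted p = 4.12e-07, limma). Ebp, the sterol isomerase, stood at 330.2 and 221 CPM and at 233 and 245 CPM in dm/fl, and at 81.2, 72.5, 48.1 and 85.3 CPM in fl/fl. Its groups did not overlap either, with a difference of 3.59-fold (log2 1.84, SE 0.27, adjusted p = 1.04e-06). Cyp51 had 258 and 555 CPM in the Wnt3a experiment and 859 and 614 CPM in the TGFβ experiment for dm/fl, against 326 and 256 and 91.9 and 272 CPM for fl/fl. The lowest dm/fl sample was the library tilted in GC, below the 2 highest fl/fl samples, and the fitted difference was 1.29 (log2, SE 0.29, adjusted p = 0.000584).

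The kinase Mvk showed the reverse tilt, with 202 CPM in the GC-tilted library and 17.0 CPM in its replicate, and 45.8 and 49.2 CPM in the TGFβ experiment. In fl/fl it had 5.93, 6.29, 9.26 and 16.7 CPM, below every dm/fl sample. The decarboxylase Mvd had 196.0 and 16.7 CPM, then 52.0 and 67.7 CPM in dm/fl, and 7.22, 6.25, 10.0 and 24.3 CPM in fl/fl, where the highest sample passed the lowest of dm/fl. The log2 differences were 2.47 (SE 0.62, adjusted p = 0.00187) for Mvk and 2.39 (adjusted p = 0.00449) for Mvd, and both were smaller in the TGFβ experiment alone, which does not use the tilted library, at 1.85 each. Lss, the lanosterol synthase, was higher by a log2 of 1.51 (adjusted p = 0.000262), with 1.44 and 1.59 in the separate experiments. Srebf2, the sterol regulator itself, was higher by 1.25 (adjusted p = 0.0326), with 1284 and 209 CPM in the Wnt3a experiment and 398 and 399.9 CPM in the TGFβ experiment, against 173, 131, 211 and 281 CPM in fl/fl. The other calls were Pmvk (1.88), Fdps (1.28), Idi1 (1.04) and Sqle (1.01) on the higher side and the desaturases Fads1 (-1.58) and Fads2 (-1.42) on the lower.

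Without the tilted library, 8 members were called higher and 2 lower, 7 of them sterol enzymes. In the TGFβ experiment alone 12 were higher and 1 lower. There 20 of 20 sterol enzymes were positive, with a median of 1.41 against 0.010 over all genes. In the Wnt3a experiment alone, which holds that library, 7 were higher and 4 lower. These counts of the separate experiments have no share of all genes beside them. A removal of each sample's GC trend gave 12 higher and 2 lower. Insig1, Ebp, Lss, Mvk, Fdps and Fads1 stayed called whichever of the 56 samples was left out. Without the tilted library the calls of Mvd (1.53), Pmvk (1.28), Srebf2 (0.59) and Idi1 (0.66) were lost, and without its replicate those of Sqle (0.90) and Fads2 (-0.95). Without untreated fl/fl replicate 1 of the TGFβ experiment Cyp51 (0.90), Sqle (0.81), Srebf2 (1.14) and Idi1 (0.68) were lost, and without replicate 2 Fads2 (-0.95). Other single samples of the 2 lines ended the calls of Srebf2, Idi1, Sqle and Fads2 with smaller shifts.

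**Figure D2:**
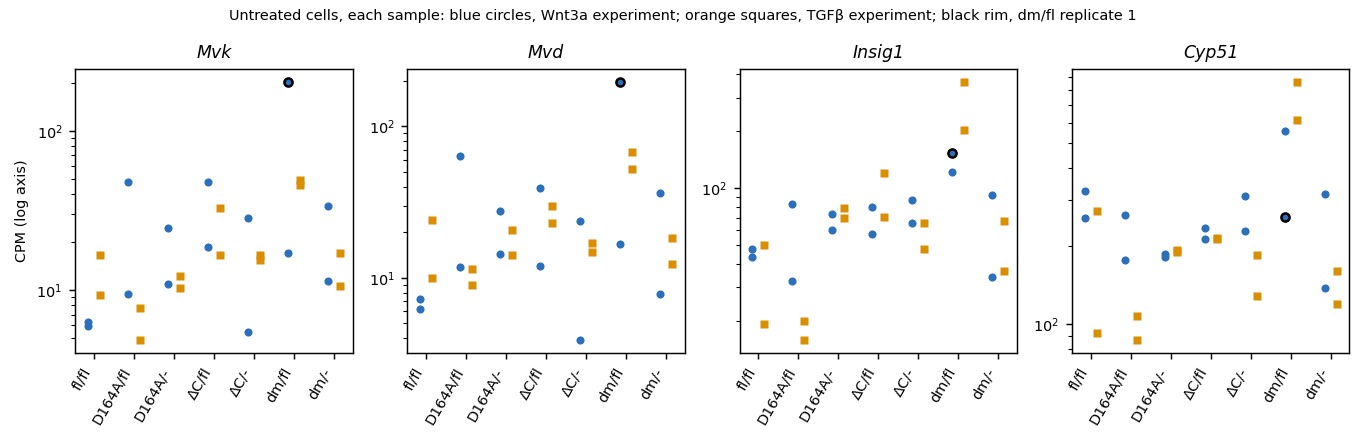
CPM of Mvk, Mvd, Insig1 and Cyp51 (log axis) in each untreated sample of the 7 lines, with blue circles for the Wnt3a experiment, orange squares for the TGFβ experiment and a black rim on dm/fl replicate 1 of the Wnt3a experiment. Insig1 was at 122 to 362 CPM in dm/fl and at 19.3 to 50.5 CPM in fl/fl, and the rimmed library was the highest of all for Mvk and Mvd but among the lower dm/fl values for Insig1 and Cyp51.

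The line dm/-, which had lost the floxed allele, stood lower than dm/fl across the sterol branch. In dm/- against dm/fl 15 members were lower and 0 higher (edgeR also called 0 higher, and 15 lower), while 10.8% of all genes were called lower and 7.49% higher. The 15 were 13 of 20 sterol enzymes and 2 of 4 sensing and transport genes, and 19 of 20 sterol enzymes were negative with a median of -1.19, against -0.011 for all genes. None of the 8 fatty acid genes was called by limma or edgeR (2 at an unadjusted p under 0.05), and their median was -0.37. In the TGFβ experiment alone 16 members were lower, 14 of them sterol enzymes, and in the Wnt3a experiment alone 4 were, 2 of them sterol enzymes. The share of all genes is not given for either experiment alone. Insig1 had 34.1 and 92.0 CPM and 66.9 and 36.7 CPM in dm/-, each below the lowest dm/fl sample, a log2 difference of -1.85 (SE 0.32, adjusted p = 1.8e-05). Idi1 had 1.13, 2.73, 2.54 and 1.94 CPM in dm/- and 18.5, 5.69, 10.4 and 9.18 CPM in dm/fl, again without overlap, at -1.88 (SE 0.36, adjusted p = 9.03e-05). Stard4, a cytosolic carrier of cholesterol, had 14.5, 32.6, 18.2 and 15.7 CPM in dm/- and 44.6, 71.7, 135 and 89.0 CPM in dm/fl. The difference was -1.98 on the log2 scale (SE 0.32, adjusted p = 6.54e-06), and no samples overlapped. Pmvk, the next kinase after Mvk, differed by -2.29 (adjusted p = 0.000609), Cyp51 by -1.62 (adjusted p = 3.4e-05) and Lss by -1.48 (adjusted p = 0.00035). Without the tilted library 13 members were lower, 11 of them sterol enzymes, and after removal of the GC trend 19 were. Insig1, Idi1, Stard4, Pmvk, Cyp51, Lss and Hsd17b7 stayed called whichever sample was left out. Without the tilted library Mvk (-0.77), Mvd (-0.94), Tm7sf2 (-0.96) and Ebp (-0.97) lost their calls. Without dm/- replicate 1 of the Wnt3a experiment the calls over the 3 deleted lines fell from 20 to 13, all of the loss in dm, where Acat2 (-0.65), Fdft1 (-0.71), Ebp (-0.89), Nsdhl (-0.94), Fdps (-0.99), Mvk (-1.28) and Mvd (-1.29) lost theirs and 8 stayed. Without dm/fl replicate 2 of the Wnt3a experiment Nsdhl (-0.75), Acat2 (-0.97) and Fdft1 (-0.99) did, and Acat2, Mvk, Mvd and Fdft1 were also lost without some of the TGFβ experiment's samples.

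Against fl/fl, dm/- itself had 0 members higher and 4 lower (9.3% of all genes higher, 8.62% lower). These were Stard4 (-2.02, adjusted p = 5.01e-06), Fads2 (-1.94, adjusted p = 0.00119), the sterol reductase Tm7sf2 (-1.46) and Fads1 (-1.06). Of the sterol enzymes 1 was called, and their median was -0.33. The call of Fads1 was lost without fl/fl replicate 1 of the Wnt3a experiment (-0.80), without fl/fl replicate 2 of the TGFβ experiment (-0.99) or without dm/- replicate 1 of the Wnt3a experiment (-0.91).

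In D164A/fl several sterol genes were lower than in fl/fl. Against fl/fl, 1 member was higher and 8 lower, while 8.46% of all genes were called higher and 7.71% lower. The lower members included 6 of 20 sterol enzymes, 18 of 20 were negative, and their median was -0.52. After removal of the GC trend 1 member was higher and 5 were lower. Stard4 had 16.1 and 20.2 CPM and 9.94 and 11.5 CPM in D164A/fl, against 103, 109, 37.4 and 103 CPM in fl/fl. It was 5.51-fold lower (log2 -2.46, SE 0.32, adjusted p = 1.45e-07), with nearly the same difference in the Wnt3a (-2.49) and TGFβ (-2.43) experiments. Fdft1, the squalene synthase, had 26.1, 47.0, 18.9 and 22.1 CPM, against 98.8, 91.0, 46.6 and 106 CPM in fl/fl, so the groups overlapped at 47.0 and 46.6 CPM. Its difference was -1.57 (SE 0.28, adjusted p = 3.01e-05). Tm7sf2 was low in both lines, at 0.844, 0.469, 2.62 and 2.38 CPM in D164A/fl and 7.19, 4.45, 5.27 and 12.1 CPM in fl/fl, and differed by -1.70 (adjusted p = 2.31e-05). Hmgcs1 (-1.19), Idi1 (-1.17), Dhcr7 (-1.13) and Nsdhl (-1.005) were the others, and Scd2 is given with the fatty acid genes. Stard4, Fdft1, Tm7sf2 and Scd2 stayed called whichever sample was left out. Without untreated fl/fl replicate 2 of the TGFβ experiment Hmgcs1 (-0.87), Idi1 (-0.81), Dhcr7 (-0.82) and Nsdhl (-0.54) lost their calls, and without D164A/fl replicate 1 of the Wnt3a experiment Dhcr7 (-0.83) and Nsdhl (-0.82) did.

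D164A/- had 2 members higher and 5 lower than fl/fl (8.94% and 9.98% of all genes). The lower ones were Tm7sf2 (-1.65), Scd2 (-1.44), the methylsterol oxidase Msmo1 (-1.39, adjusted p = 2.52e-05), Fdft1 (-1.39, adjusted p = 0.000137) and Stard4 (-1.25), 3 of them sterol enzymes with a median of -0.19 over that group. The call of Stard4 was lost without untreated fl/fl replicate 2 of the TGFβ experiment (-0.89), and the others held in every such fit. In D164A/- against D164A/fl, 4 members were higher and 0 lower (4.05% and 5.4% of all genes): Scd1, the thiolase Acat2 (1.25), Stard4 (1.21) and Insig1 (1.17). These 4 rested on the TGFβ experiment, where 9 members were higher and 1 lower, a count without a share of all genes beside it. In the Wnt3a experiment alone limma called 0. Without D164A/fl replicate 1 of the Wnt3a experiment Insig1 (0.84) and Acat2 (0.90) lost their calls, and Acat2 lost its call without any of 6 other samples of these lines.

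Few members were called in the ΔC lines. In ΔC/fl against fl/fl only Insig1 was higher (1.04, adjusted p = 0.0112) and only Fads1 lower (-1.03, adjusted p = 0.0162), with 0 sterol enzymes called by limma and 10 of 20 positive, while 9.78% of all genes were called higher and 6.81% lower. In ΔC/- against fl/fl 0 members were higher and 3 lower (12.1% and 10.9% of all genes), namely Fads1, Stard4 (-1.37, adjusted p = 0.000719) and Idi1 (-1.12, adjusted p = 0.012). In ΔC/- against ΔC/fl 0 were higher and 1, Fads1, was lower (5.31% and 6.91% of all genes). Both ΔC/fl calls were lost without 1 of several samples, at the lowest size 0.70 for Insig1 (without untreated fl/fl replicate 1 of the TGFβ experiment) and -0.77 for Fads1 (without fl/fl replicate 1 of the Wnt3a experiment), and that of Idi1 in ΔC/- without fl/fl replicate 2 of the TGFβ experiment (-0.76) or either replicate 1 of ΔC/-.

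The fatty acid genes differed among lines one by one. Fads1, which puts a double bond into polyunsaturated fatty acids, had 14.9 and 9.12 CPM and 7.10 and 8.50 CPM in ΔC/-. All 4 samples lay far below fl/fl, at 223, 106, 137 and 169.8 CPM, and below ΔC/fl, at 50.0, 101, 94.2 and 63.4 CPM. The difference was 14.6-fold from fl/fl (log2 -3.87, SE 0.33, adjusted p = 2.29e-11) and 7.12-fold from ΔC/fl (log2 -2.83, SE 0.33, adjusted p = 4.23e-08), with values of -2.51 and -3.16 in the separate experiments for the latter. The summed leukocyte markers were at 8.03 to 79.4 CPM in ΔC/- and 2.16 to 10.51 CPM in ΔC/fl, over treated and untreated samples, and their part was not tested.

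Scd1, which makes oleate from stearate, had 5465 and 4913 CPM and 8323 and 6430.3 CPM in D164A/-. In fl/fl it had 1205, 646, 1318 and 1651 CPM, so every D164A/- sample was higher, by 5.39-fold in the fit (log2 2.43, SE 0.31, adjusted p = 1.01e-07). D164A/fl was split by experiment, with 2658 and 3476 CPM in the untreated cells of the Wnt3a experiment and 311 and 468 CPM in those of the TGFβ experiment. Its paralog Scd2 was split in the same way in D164A/fl, at 969.6 and 1929 CPM and then 226 and 363 CPM, against 3294, 2552, 1370.1 and 3624 CPM in fl/fl. The log2 difference of Scd2 was -2.02 (SE 0.28, adjusted p = 6.15e-07), with -1.08 when the untreated cells of the Wnt3a experiment were taken alone and -2.95 for those of the other experiment.

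Srebf1 had 366 and 749.9 CPM and 529 and 526 CPM in D164A/-, above all fl/fl samples at 52.8, 41.7, 100.2 and 123 CPM (log2 2.84, SE 0.59, adjusted p = 0.000225). In D164A/fl it had 224 and 1128 CPM in the Wnt3a experiment and 76.6 and 111 CPM in the TGFβ experiment. That call (1.57, adjusted p = 0.0435) turned to -0.26 in the TGFβ experiment alone. It was also lost without replicate 2 of D164A/fl in the Wnt3a experiment (0.98) or without any of 6 other samples of these lines, while that of D164A/- was never lost.

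Over the 28 condition means, 19 sterol enzymes tracked each other, with a median Pearson correlation of 0.71 between each gene and the mean of the others (from -0.07 for Ggps1, which feeds the geranylgeranyl branch, to 0.93 for Cyp51). These are descriptions over conditions that share lines and libraries. Nsdhl and Fdps were at 0.86, Tm7sf2 at 0.26. Of the other members, Acly (0.83), Insig1 (0.78), Stard4 (0.75), Srebf2 (0.58) and Scd2 (0.54) followed the sterol mean, whereas Srebf1 was at -0.16 with it and at 0.65 with the mean of the fatty acid genes. The fatty acid genes were looser, with a median of 0.46 with the mean of the others, led by Acaca at 0.75 and Fasn at 0.62, and a median of 0.10 with the sterol mean. Without the tilted library these medians were 0.71, 0.47 and 0.06, and the lowest value among the sterol enzymes was 0.07.

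**Figure D3:**
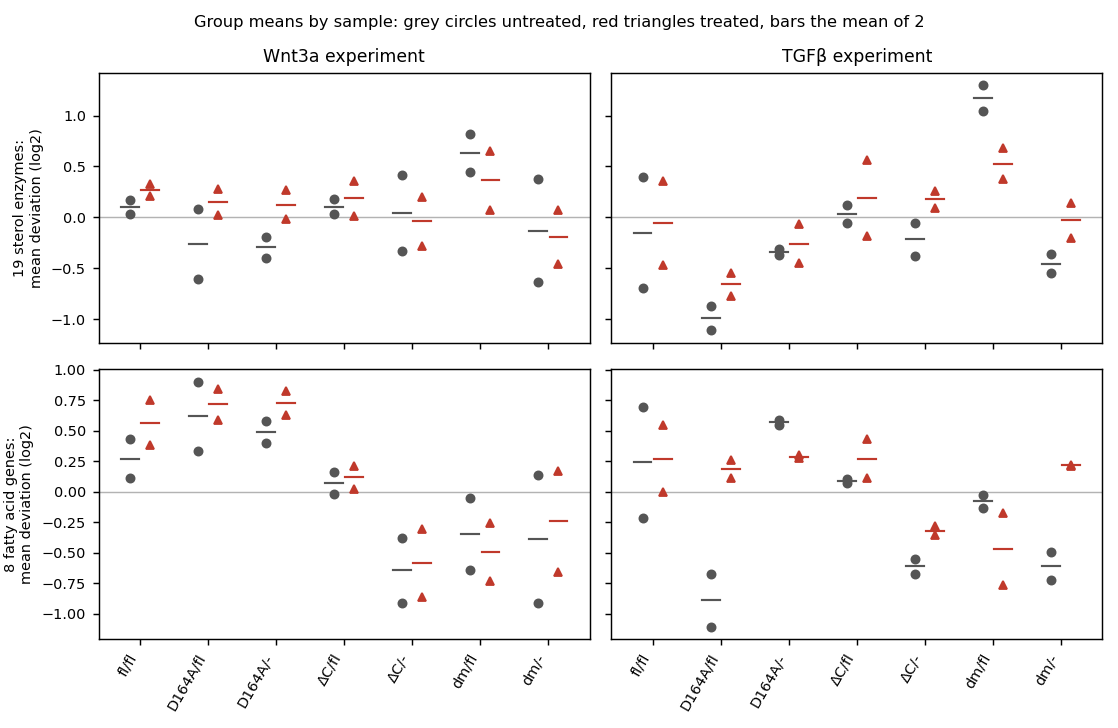
Mean deviation (log2) of 19 sterol enzymes (top) and 8 fatty acid genes (bottom) from their means over all 56 samples, per sample, for the Wnt3a experiment (left) and the TGFβ experiment (right), with grey circles for untreated samples, red triangles for treated samples and bars at the mean of 2. The sterol mean of dm/fl in the TGFβ experiment was 1.30 and 1.05 without TGFβ and 0.68 and 0.38 with it, and the fatty acid mean of D164A/fl went from -1.11 and -0.68 to 0.11 and 0.26.

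The TGFβ experiment asked how each line responds to this cytokine, which drives epithelial to mesenchymal transition in such cells. In the fit without a replicate block the calls among the members fell on desaturases: 7 calls over 7 lines, 5 higher and 2 lower with TGFβ. In fl/fl 1 member was called (6.25% of all genes), in D164A/fl 2 (3.38%), in D164A/- 0 (4.06%), in ΔC/fl 1 (7.74%), in ΔC/- 1 (6.55%), in dm/fl 0 (10.3%) and in dm/- 2 (6.12%). No sterol enzyme was called in that fit or by edgeR in any line, with 0 to 4 of 20 per line at an unadjusted p under 0.05. With the replicate number as a block there were 26 calls, 17 on fatty acid genes, 7 on sterol enzymes and 2 on Insig1. The 7 were Acat2 in D164A/fl (1.22) and dm/- (1.28), Dhcr7 in D164A/fl (1.02), Tm7sf2 in ΔC/- (1.005), Nsdhl in dm/- (1.502), and in dm/fl Lss (-1.06) and Mvk (-1.68). No share of all genes is given for the blocked fit, so its counts cannot be set against a background. In the fit without the block, 1 member for D164A/- and 5 members for dm/fl were at an unadjusted p under 0.05. Without dm/fl replicate 1 with TGFβ the number of calls was 11 instead of 7.

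Scd1 moved in opposite directions in different lines. In fl/fl it went from 1318 and 1651 CPM to 322 and 446 CPM with TGFβ, without overlap, a log2 fold change of -1.96 (SE 0.44, adjusted p = 0.00271). It also fell in ΔC/-, from 1419.7 and 1315 CPM to 762 and 345 CPM (-1.41, adjusted p = 0.0392). In D164A/fl it rose from 311 and 468 CPM to 1453 and 1594 CPM (1.99, adjusted p = 0.00441), which remained below the 2658 and 3476 CPM of the untreated D164A/fl cells of the Wnt3a experiment. In dm/- it rose from 1093 and 1004 CPM to 4374 and 1988 CPM (1.49, adjusted p = 0.0306).

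The remaining lines were not called for Scd1 in the fit without a replicate block. The values were -1.35 (adjusted p = 0.0806) in D164A/-, -1.01 (adjusted p = 0.164) in dm/fl and -0.61 (adjusted p = 0.566) in ΔC/fl. With the block Scd1 was called lower in D164A/- and dm/fl. The response differed from that of fl/fl in D164A/fl by 3.95 (SE 0.63, adjusted p = 8.50e-05) and in dm/- by 3.45 (adjusted p = 0.000611), tested as an interaction. These were 2 calls among the 32 members over 6 such comparisons, in which 3.27% of all genes were called. These interactions stayed called when each of the 56 samples was left out in turn. With only the lines compared in the fit, that of D164A/fl stayed called and that of dm/- did not. The calls within a line were less stable: that of fl/fl was lost without replicate 1 with TGFβ (-1.72), that of D164A/fl without untreated replicate 1 (1.70) or treated replicate 2 (1.93), that of ΔC/- without treated replicate 2 (-0.84) or either untreated one, and that of dm/- without treated replicate 1 (0.92) or either untreated one.

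Scd2 rose with TGFβ in D164A/fl, from 226 and 363 CPM to 1042 and 1124 CPM (1.91, SE 0.40, adjusted p = 0.00228). It rose in dm/- from 1896 and 1627 CPM to 6809 and 5292 CPM (1.77, adjusted p = 0.00297), with no overlap in either line. The treated D164A/fl samples nevertheless lay between the untreated samples of that line in the Wnt3a experiment, given above. In fl/fl Scd2 had 1370.1 and 3624 CPM without and 2999 and 4011 CPM with TGFβ, where the samples overlapped. Fads1 rose in ΔC/fl, from 94.2 and 63.4 CPM to 269 and 220.0 CPM (1.64, SE 0.47, adjusted p = 0.019). Fads2 there stood at 91.0 and 110.0 CPM without and 293 and 258 CPM with TGFβ. This rise of Fads2 was called with the replicate block (1.45) and not in the fit without it. The block also gave calls of Fads1 as higher in fl/fl, D164A/fl, ΔC/- and dm/-. It gave further calls of Fads2 as higher in D164A/fl, ΔC/- and dm/-. None of these further rises was called in the fit without the block. In that fit the call of Scd2 was lost without untreated replicate 1 in D164A/fl (1.57) or untreated replicate 2 in dm/- (1.66). That of Fads1 in ΔC/fl was lost without untreated replicate 2 (1.36) or either treated replicate.

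**Figure D4:**
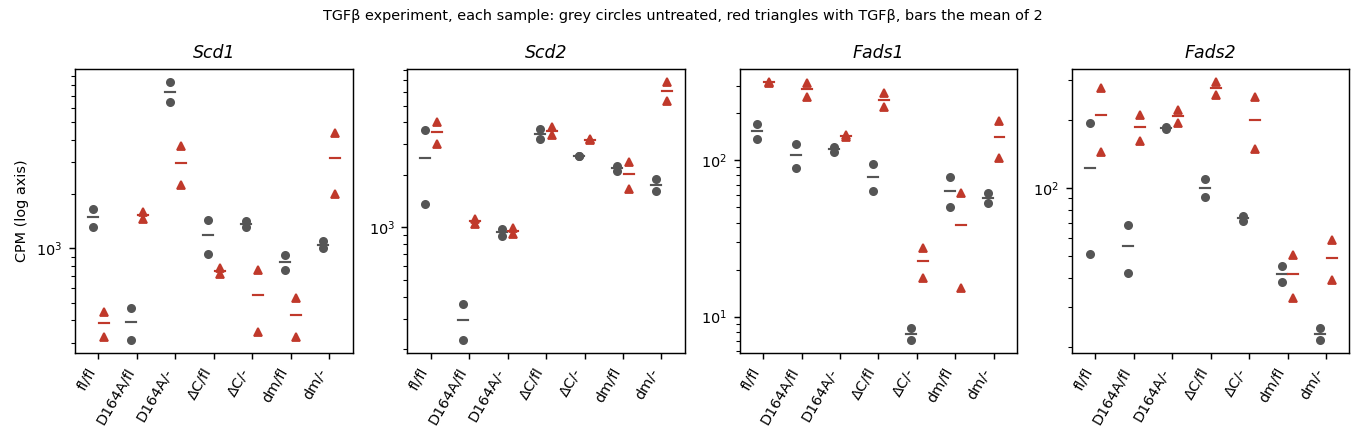
CPM (log axis) of the desaturase genes Scd1, Scd2, Fads1 and Fads2 in each sample of the TGFβ experiment, with grey circles for untreated samples and red triangles for samples with TGFβ. Scd1 lies lower with TGFβ in fl/fl (322 and 446 CPM) and higher in D164A/fl (1453 and 1594 CPM). Fads1 in ΔC/- lies between 7.10 and 27.7 CPM over untreated and treated samples. Its rise with TGFβ there was called with the replicate block and not in the fit without it.

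Averaged over the 7 lines, no member passed both thresholds by limma or edgeR, and 10 were at an unadjusted p under 0.05. That count was 1 without any of 6 samples, namely replicate 1 with TGFβ of fl/fl, ΔC/- or dm/-, replicate 2 with TGFβ of dm/fl, and untreated replicate 2 of fl/fl or D164A/fl. At the adjusted p alone, which 28.8% of all genes passed, 6 members were higher and 1 lower with TGFβ. The higher ones were Fads2 (0.96, SE 0.25, adjusted p = 0.00278), Fads1 (0.86, adjusted p = 0.000316), Nsdhl (0.71, adjusted p = 0.00599), Scd2 (0.65, adjusted p = 0.00099), Cyp51 (0.50, adjusted p = 0.0138) and Acly (0.36, adjusted p = 0.0434). The call of Acly was lost without any of 20 samples of this experiment, at 0.31 to 0.37. The lower one was Elovl6, which elongates palmitate to stearate, at -0.75 (SE 0.23, adjusted p = 0.0121), negative in 7 of 7 lines. In D164A/- Elovl6 had 203 and 183 CPM without and 73.9 and 99.3 CPM with TGFβ.

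In dm/fl 19 of 20 sterol enzymes were negative with TGFβ, with a median of -0.59, while in dm/- 15 were positive, with a median of 0.27. Sqle, the squalene monooxygenase, had 672 and 518 CPM without and 351 and 255 CPM with TGFβ in dm/fl, a log2 fold change of -0.97 that passed the adjusted p (0.011) and missed the fold limit. The response of dm/- differed from that of dm/fl, tested as an interaction, for Scd1 (2.50, adjusted p = 0.00814), Fads1 (2.21, SE 0.67, adjusted p = 0.0330), Scd2 (1.91, SE 0.56, adjusted p = 0.0284) and Sqle (1.21, SE 0.38, adjusted p = 0.0435). With Scd1 in D164A/- against D164A/fl (-3.34, adjusted p = 0.00160), these were 5 calls over 3 comparisons of a deleted with its floxed line, where 3.93% of all genes were called. The 4 calls for dm were each lost without dm/fl replicate 2 with TGFβ (Scd1 2.14, Fads1 1.24, Scd2 1.65, Sqle 0.98) or without untreated dm/fl replicate 1 of that experiment (2.36, 1.89, 1.86 and 1.02), and some also without a dm/- sample, while the call for D164A was never lost so. With only the lines compared in the fit the 4 dm calls were lost and that for D164A stayed.

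Acat2 and Fdps, the mevalonate members with the largest mean response, were not called in any line in the fit without a replicate block. With the block Acat2 was called in D164A/fl and dm/-. In D164A/fl Acat2 had 9.73 and 13.9 CPM without and 25.2 and 32.03 CPM with TGFβ. Fdps in ΔC/- had 65.2 and 91.1 CPM without and 103 and 174 CPM with it. Insig1 in D164A/fl had 15.8 and 19.9 CPM without and 45.4 and 49.5 CPM with TGFβ, without overlap. Its rise was called with the block (1.37) and not in the fit without it. Srebf1 in D164A/fl had 76.6 and 111 CPM without and 243 and 315 CPM with TGFβ, and was called in neither fit. For both Insig1 and Srebf1 the treated D164A/fl samples lay between the untreated samples of that line in the Wnt3a experiment.

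With Wnt3a 1 member was called in 1 line. In fl/fl 0 members were called (0.378% of all genes), in D164A/fl 1 (4.15%), in D164A/- 0 (0.654%), in ΔC/fl 0 (0.225%), in ΔC/- 0 (0.0509%), in dm/fl 0 (0.574%) and in dm/- 0 (0.0%). In the 6 lines at 0, edgeR also called 0, and the counts at an unadjusted p under 0.05 were 4 in fl/fl, 1 in D164A/-, 2 in dm/fl and 0 in ΔC/fl, ΔC/- and dm/-. Averaged over lines no member passed both thresholds by limma or edgeR and 2 were at an unadjusted p under 0.05. At the adjusted p alone, which 3.52% of all genes passed, 1 did. The number of calls rose from 1 to 14 without dm/fl replicate 2 of the untreated cells, whose lone untreated sample was then the tilted library, to 4 without fl/fl replicate 2 with Wnt3a and to 2 without D164A/- replicate 1 with Wnt3a.

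That gene was Idi2, which codes for the second isopentenyl diphosphate isomerase and starts 67.3 kb from Idi1 on chromosome 13. It was at 0 reads in 40 of 56 samples, held 1 to 3 reads in 9 and reached 1 CPM in only 4, all of them with Wnt3a, so it passed the filter through the condition in which it was high. It also stands on a list that the study chose on these samples. In D164A/fl Idi2 had 0 and 0 reads without Wnt3a and 378 and 149 reads with it, at least 84.0-fold higher when each untreated library is set at 3 reads (log2(CPM + 1) difference 3.19, SE 0.23). No p is given for Idi2, since the condition in which it was high also brought it past the filter. D164A/- went from 0 and 0 to 18 and 38 reads, at least 8.46-fold higher (0.97, under the fold limit), and dm/fl from 0 and 0 to 9 and 10 reads, at least 3.11-fold higher, without a call. In fl/fl the reads were 2 and 1 without and 38 and 2 with Wnt3a, and the difference was not called (0.67). ΔC/fl had 3 and 0 reads with Wnt3a, ΔC/- 1 and 0, and dm/- 0 in all 4 samples, where 3 reads were worth up to 0.119 CPM. The response of Idi2 in D164A/fl exceeded that in fl/fl by 2.52 (SE 0.33), and that in D164A/- differed from D164A/fl by -2.22. They were the only member calls in those interactions, against 0.439% and 0.364% of all genes, and both were lost by edgeR and after removal of the GC trend, the latter also with a pseudocount of 0.1 CPM. The call within D164A/fl held in those fits and in every fit that left out a sample. That is no independent support, since Idi2 passed the filter and entered the study's list through these same samples.

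Idi1, the widely expressed isomerase, did not follow. In D164A/fl it had 1.75 and 2.02 CPM without and 2.49 and 2.42 CPM with Wnt3a. In fl/fl it had 5.80 and 6.52 CPM without and 0.940 and 4.24 CPM with Wnt3a. Idi1 was called in neither line in the fit without a replicate block. It was under 1 CPM in 8 of the 56 samples. The genes are paralogs and only reads with a unique hit were counted, so their levels are uncertain where they share sequence. How much sequence they share was not tested. The promoter printed above for Idi1 held 2 CCAAT matches and that for Idi2 held 0.

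**Figure D5:**
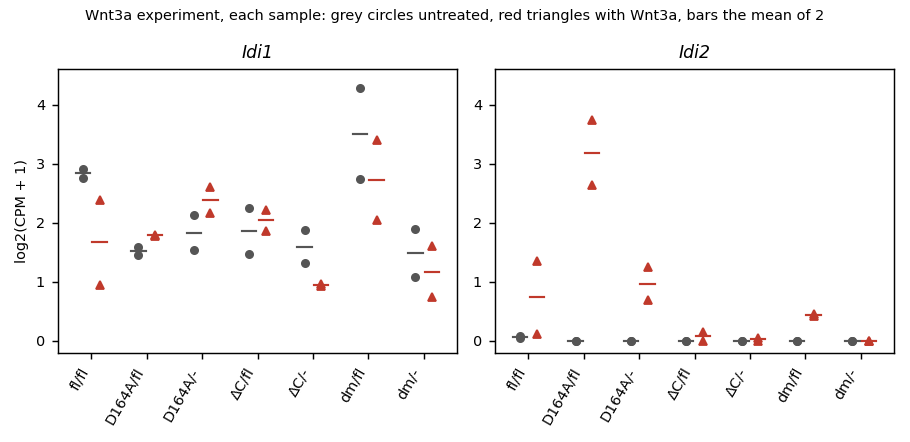
Levels of Idi1 and Idi2 as log2(CPM + 1) in each sample of the Wnt3a experiment by line, with grey circles for untreated samples and red triangles for samples with Wnt3a. Idi2 rises off the baseline with Wnt3a in D164A/fl (12.4 and 5.23 CPM) and less in D164A/- (0.611 and 1.39 CPM), while Idi1 shows no common direction.

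The sterol enzymes were positive with Wnt3a for 19 of 20 in D164A/fl (median 0.41) and for 19 of 20 in D164A/- (median 0.50), none called but Idi2. In D164A/fl, Nsdhl had 52.5 and 89.2 CPM without and 109 and 141 CPM with Wnt3a, and Cyp51 177 and 263 CPM without and 311 and 360 CPM with it. Both were without overlap and without a call. Srebf2 had 144 and 417 CPM without and 222 and 278 CPM with Wnt3a in the same line, and Insig1 32.2 and 82.3 CPM without and 59.4 and 77.7 CPM with it. In those cases the treated samples lay between the untreated ones. Elovl6, the fatty acid gene with the largest mean size of response (-0.42), had 151 and 219 CPM without and 27.96 and 132 CPM with Wnt3a in fl/fl, and Scd2 had 3294 and 2552 CPM without and 5151 and 3483 CPM with it. Neither was called.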

How the data were processed

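RNA of 56 cultures was read with a stranded poly(A) protocol and single-end sequencing. Following the study's methods, the authors aligned reads to mm10 with RNA-STAR, kept unique hits, counted those starting in RefSeq exons with QuasR and deposited the counts divided by an effective library size, a scaled signal in units close to CPM. Every value was a whole multiple of 1 read within 0.001, which returned reads for the floor of 3 reads and for a count test. Of 20314 identifiers 20261 had a RefSeq symbol.

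Values were taken as log2(CPM + 1) and fitted with limma 3.58.1 (trend, 28 condition means, 28 residual degrees of freedom, R 4.3.3) over the 13754 genes that reached 1 CPM in 2 or more samples. Adding 1 understates changes of low genes. Calls used the study's thresholds, an adjusted p of 0.05 and a log2 fold change of 1. Untreated contrasts averaged both experiments. Shares of all genes called are given for this fit only, and counts from single experiments or other fits have none beside them. The study names its duplicates biological, but no label ties them to separate cultures, so p-values measure the spread between these samples. The treatment protocol in the labels names other lines, with the same doses and times as the methods give. The labels do not say that a replicate number marks a shared culture or day, so the numbers were not taken as pairs in this fit. Treated and untreated deviations of a number nevertheless correlated by 0.33 to 0.93 in 12 of 14 condition pairs. A shared origin of these samples is therefore possible, and results with a replicate block are given as an alternative.

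Alternatives were edgeR 4.0.16 on the recovered reads, no filter, a pseudocount of 0.1, median-of-ratios scaling, no fold limit, a replicate block, lowess removal of the GC trend (span 0.3), each experiment alone, only the lines compared, and each sample left out. On simulated data with 200 changed genes limma recovered 189, with 20 false among 209 calls. The simulated samples were independent, with the same dispersion for all genes and no GC tilt or replicate effect. These figures therefore check the code and do not give the power or error rate in the present samples.

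The members and lists were chosen with earlier results of these data known. All 32 members are accounted for. By-sample values are given, in each role group, for the 2 members called in most lines per treatment and the 2 widest among untreated lines, plus regulators and paralog pairs, and for others where a result turns on them. Up to 4 genes per further list are named. Some items are not reported here.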

Additional observations from a re-analysis of the deposited data

Results flagged for a closer look

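The response to TGFβ differed between lines for Scd1, tested as an interaction: it was 3.95 higher (log2, SE 0.63, adjusted p = 8.50e-05) in D164A/fl and 3.45 higher (adjusted p = 0.000611) in dm/- than in fl/fl. Between a deleted line and its floxed line, the Scd1 response differed by -3.34 for D164A (adjusted p = 0.00160) and by 2.50 for dm (adjusted p = 0.00814). For dm the responses of Fads1 (2.21, adjusted p = 0.0330), Scd2 (1.91, adjusted p = 0.0284) and Sqle (1.21, adjusted p = 0.0435) differed as well. With only the lines compared in the fit the 4 dm calls were lost, as was that of Scd1 in dm/- against fl/fl. By edgeR the dm comparison had 2 calls. Each dm call was also lost without a dm/fl sample, and that of Sqle also without an untreated D164A/- or fl/fl sample. The Wnt3a response of Idi2 was 2.52 higher in D164A/fl than in fl/fl and -2.22 in D164A/- against D164A/fl, from libraries mostly at 0 reads. No p is given for these, since Idi2 passed the filter through the condition in which it was high, and both differences lost their call by edgeR and after removal of the GC trend. Adjusted p-values are limma's with Benjamini-Hochberg adjustment over all genes tested.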

How the results depend on the processing

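Of the counts of members called, that of untreated lines against fl/fl, taken over all 6 lines (38), stayed within 1.5 times under every alternative. In D164A/fl alone the lower calls went from 8 to 5 with the GC trend removed. The largest median-of-ratios shift of any library was 0.107 (log2). With no fold limit the mean TGFβ response had 7 calls and the mean Wnt3a response 1, and the Wnt3a responses within lines 2. With a pseudocount of 0.1 CPM the mean Wnt3a response had 1 call, the Wnt3a responses 2, and the Wnt3a difference of deleted from floxed lines 0. The replicate block is a fit by shared number only. Deviations of treated and untreated samples of a number correlated by 0.33 to 0.93 in 12 of 14 pairs of conditions, and by -0.068 and -0.197 in the others. With this block the TGFβ responses had 26 calls, their differences between deleted and floxed lines 14 and from fl/fl 12. The Wnt3a responses had 2 calls with it and their differences from fl/fl 13. The block with crossed numbers, added after seeing the data, gave 26, 15 and 12 for the TGFβ counts. With the GC trend removed the TGFβ responses had 12 calls and their differences from fl/fl 5, and both Wnt3a differences 0. With GC removal and the replicate block together the TGFβ counts were 29, 23 and 18, the Wnt3a responses 6, and the Wnt3a differences 0 between deleted and floxed lines and 4 from fl/fl. By edgeR the TGFβ difference of deleted from floxed lines had 3 calls and both Wnt3a differences 0. With only the lines compared in the fit the TGFβ responses had 1 call, their differences 1 and 1, and the Wnt3a responses 2, with fewer samples to estimate the spread; the mean responses use all lines, so that fit is the same for them. In the Wnt3a experiment alone deleted and floxed untreated lines differed in 5 members and the F test called 12. Srebf1 in D164A/fl against fl/fl turned to -0.26 in the TGFβ experiment alone. The cause of these changes was not tested.

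Leaving out each of the 56 samples in turn, with a lone sample assumed to vary like the rest, the counts ran from 0 to 1 for the mean TGFβ response, 0 to 0 for the mean Wnt3a response, 5 to 11 for TGFβ responses, 1 to 14 for Wnt3a responses, 32 to 40 for untreated lines against fl/fl, 13 to 24 for deleted against floxed lines, 22 to 28 for the F test, 1 to 6 and 2 to 5 for the TGFβ differences (deleted from floxed, and from fl/fl), and 1 to 7 and 1 to 14 for the Wnt3a differences. The TGFβ difference of deleted from floxed lines fell from 5 to 1 without untreated dm/fl replicate 1 or treated dm/fl replicate 2, to 2 without treated dm/- replicate 1 or untreated dm/- replicate 2 and to 3 without treated dm/- replicate 2. The TGFβ difference from fl/fl had 5 calls without either untreated dm/fl replicate of the Wnt3a experiment and 4 without untreated fl/fl replicate 2. The Wnt3a differences had 7 and 14 calls without untreated dm/fl replicate 2, and that from fl/fl 9 without treated fl/fl replicate 2 and 2 without either treated dm/- replicate. With 2 samples per condition, differences near the fold limit could not be resolved, and Idi2 and Idi1 rested on few reads.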

Other observations

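Genes outside the member list, from 3 further lists on the same pathways, were read in the same fits. In the untreated comparisons with fl/fl, 8.46% to 12.1% of all genes were called higher and 6.81% to 10.9% lower, depending on the line. The counts below are to be read against these shares, and the genes named were picked from those called. Of 11 other sterol genes, 0 were higher and 2 lower in untreated D164A/fl against fl/fl, 0 and 1 in D164A/-, 2 and 2 in ΔC/- and 0 and 0 in ΔC/fl (limma, 1 in ΔC/fl at an unadjusted p under 0.05). The dm lines are not reported here for this list. Soat1, which esterifies cholesterol, differed from fl/fl by -1.24 in D164A/fl, -1.77 in D164A/- and 1.13 in ΔC/-. Lrp8, a lipoprotein receptor, differed by 1.16 in dm/fl and -1.12 in ΔC/-.

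Of the 5 efflux and LXR genes, which export cholesterol or sense its oxidised forms, 0 were higher and 1 lower in untreated D164A/fl against fl/fl, 1 and 2 in D164A/-, 1 and 2 in ΔC/fl, 0 and 2 in ΔC/-, 1 and 2 in dm/fl and 0 and 3 in dm/-. Abcg1, a transporter of sterol, was called lower than fl/fl in 5 of 6 lines. Its medians were 25.8 CPM in untreated fl/fl, 2.01 CPM in D164A/fl and 0.128 CPM in D164A/-, with log2 differences of -3.07 and -4.42. Nr1h3, which codes for LXRα, was lower in D164A/- (-1.52), ΔC/fl (-1.67), dm/fl (-1.11) and dm/- (-1.52). The efflux pump Abca1 was lower with TGFβ in dm/fl (-3.88 on the log2 scale) and in ΔC/fl (-2.16), and lower in untreated dm/- than in dm/fl (-3.36). Mylip, which codes for a ligase that degrades lipoprotein receptors, rose with TGFβ in D164A/fl (1.62) and D164A/- (1.47).

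Of 19 other fatty acid genes, 5 were higher and 1 lower in untreated D164A/- against fl/fl, 4 and 1 in ΔC/-, 3 and 1 in dm/fl, 3 and 0 in dm/-, 2 and 0 in D164A/fl and 2 and 1 in ΔC/fl. Lpin1, a phosphatidate phosphatase of triglyceride synthesis, was higher in D164A/- (1.65), ΔC/fl (1.62), ΔC/- (2.39), dm/fl (2.86) and dm/- (1.78). Acacb, the mitochondrial acetyl-CoA carboxylase, was higher in D164A/fl (1.15), D164A/- (1.84), ΔC/fl (1.08) and ΔC/- (2.64). Thrsp, a lipogenic gene, had a median of 8.61 CPM in untreated D164A/- and 0.0201 CPM in fl/fl. Acss2, which makes acetyl-CoA from acetate, was higher in untreated D164A/- (1.83) and dm/fl (1.502), and with TGFβ was lower in dm/fl (-1.94) and higher in D164A/fl (1.34).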
